A study of Mus musculus with 35 samples.

Results

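Cdkn1a and the genes that act beside it on entry into the cell cycle were followed across the mouse hypothalamus with and without food. The 8 genes are the CDK inhibitors Cdkn1a, Cdkn1b, Cdkn1c, Cdkn2c and Cdkn2d and the D cyclins Ccnd1, Ccnd2 and Ccnd3, found by their gene names among 49568 names in the count tables. All 8 passed the filter on low counts, which left 18063 genes. Cdkn1a was chosen because it had the largest increase on fasting in these same mice, so its difference between fasted and fed mice is given as a description, with no test. The other 7 genes were taken for their place in the pathway, but with earlier results of these data already known. They were tested on fasting, and all 8 were tested between genotypes.

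CDK inhibitors are small proteins that hold cyclin-dependent kinases in check. The products of Cdkn1a (p21), Cdkn1b (p27) and Cdkn1c (p57) bind complexes of a cyclin with its kinase, whereas those of Cdkn2c and Cdkn2d bind CDK4 and CDK6 alone and keep the D cyclins away from them. D cyclins with CDK4 or CDK6 phosphorylate the retinoblastoma protein, which releases E2F factors and starts DNA synthesis. Most cells of the adult hypothalamus do not divide, and p21 is also known as a product that p53 and, in some cell types, the glucocorticoid receptor induce.

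RNA sequencing of polyA RNA was done on the hypothalamus of 35 male mice (strain B6/J), dissected as a block at Zeitgeber time 16, that is 16 h after lights-on. Control mice had food at all times (n = 10) or none for 16 h (n = 10). Mice with the mutant clock protein PER2-S662D were likewise fed (n = 5) or fasted (n = 5), and mice labelled Per2 knockout were fasted (n = 5). Whether PER2-S662D comes from a transgene or a changed Per2 gene, and which part of Per2 the knockout lacks, is not given in the sources used here. Nothing in the labels tells of cages, litters or days, so p-values measure the spread between these mice.

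Libraries held 17959586 to 37027342 counts assigned to genes, and mitochondrial genes took 6.24% to 9.08% of them. Per2 itself held 30.3 ± 2.00 CPM (SD, n = 5) in the mice labelled Per2 knockout, no less than in fasted controls (29.0 ± 2.45 CPM, SD, n = 10), and it was 19.9 ± 2.38 CPM (SD, n = 5) in fasted S662D mice. CPM are counts scaled to the library's total. The knockout group is therefore called by its label throughout, and S662D stands for PER2-S662D. The 10 markers of hypothalamic neurons summed to 504 to 730 CPM over all libraries. The pituitary hormones Prl and Gh were below 1 CPM in each, but Tshb averaged 1.87 CPM. Cga averaged 1.49 CPM in the labelled knockout and 0.324 CPM in fasted controls (adjusted p 0.817 by edgeR). The 3 thalamus markers summed to 511 to 644 CPM in fed controls. Tcf7l2 and Lef1, but not Prkcd, passed as lower in the labelled knockout than in fasted S662D mice (adjusted p 0.00264 and 0.0305 by edgeR). Lef1 also fell on fasting in controls (adjusted p 0.00549 by edgeR). The part of thalamic or pituitary tissue in the results was not tested. Library numbers in the headers put controls 1 to 5, controls 6 to 10, the labelled knockout and the S662D mice in separate ranges, and 6 of 10 S662D libraries (mice 2, 3 and 4 of each state) bear an additional digit whose meaning is not stated. Genotype and range cannot be told apart for the labelled knockout and S662D. For Cdkn1a and the genes that passed a test, some values are therefore also given within a set of controls or of S662D libraries. For the other genes such values are not printed.

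Cdkn1a lies on chromosome 17 (29090979 to 29100722, plus strand, build mm10), and none of its exon bases overlap another gene. RefSeq gives it transcripts from more than one start site, and the 250 bases before each of the 2 start sites in the table used (build GRCm38.p6) are shown because the results turn on this gene. The first window is chr17:29090729-29090978 and the second is chr17:29093519-29093768, both on the plus strand and written 5′ to 3′, with matches to the motifs searched in capitals.
Cdkn1a, first start: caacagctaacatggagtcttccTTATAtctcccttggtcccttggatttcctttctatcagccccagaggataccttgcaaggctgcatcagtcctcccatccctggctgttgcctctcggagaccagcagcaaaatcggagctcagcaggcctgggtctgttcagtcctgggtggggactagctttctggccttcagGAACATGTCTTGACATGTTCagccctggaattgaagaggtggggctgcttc
Cdkn1a, second start: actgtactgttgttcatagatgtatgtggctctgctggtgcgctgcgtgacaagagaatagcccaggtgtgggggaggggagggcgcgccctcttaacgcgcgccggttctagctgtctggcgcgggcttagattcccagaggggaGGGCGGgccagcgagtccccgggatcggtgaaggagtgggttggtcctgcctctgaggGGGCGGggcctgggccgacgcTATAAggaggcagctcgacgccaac
In the first window, the capitals mark TATAA read on the opposite strand and, beginning 51 bases before the start, a match to the p53 consensus of 20 bases with 1 mismatch. The capitals of the second window mark the GC box GGGCGG at 2 places and TATAA, which begins 25 bases before the start.

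Both strands of 32851 windows of 250 bases before RefSeq start sites were searched in the same way. A mismatch was allowed for the p53 consensus only, and the other motifs had to match exactly. A p53 match with at most 1 mismatch and no spacer was in 0.0761% of them (25 windows of 25 genes), against 32.7% for GGGCGG and 22.8% for TATAA. The glucocorticoid receptor motif (AGAACA, any 3 bases, then TGTTCT) was in 0.00913% of windows, the E-box CACGTG in 6.02% and the FOXO motif GTAAACA in 3.17%. None of these was in a Cdkn1a window. Exact matches this rare are expected to be absent from most windows, so their absence is not set against the p53 match. RefSeq windows were found for 5 of the 8 genes. Each window of Cdkn1b, Cdkn2d and Ccnd3 and the first of 2 for Cdkn2c held GGGCGG, no window of these genes held TATAA, and GTAAACA was in 1 window of Ccnd3. A match is a run of letters and no evidence of binding, and the motifs overlap no other motif in the Cdkn1a windows. Of the 9 genes with a p53 match that were tested, Ccng1 rose on fasting in controls by 0.20 on the log2 scale (SE 0.05, adjusted p 0.0232 by edgeR), 0 fell, and 7 did not pass the test. Cdkn1a is the ninth. Of all genes 2.2% passed and were higher on fasting in controls, and nothing about p53 matches is read from 1 call among so few genes.

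Cdkn1a was low in fed mice and higher in every fasted one, by a factor that varied widely between mice. Fed controls held 5.81 to 11.2 CPM (median 7.65). Fasted controls 1 to 5 held 63.1, 54.9, 79.0, 70.0 and 66.9 CPM, and fasted controls 6 to 10 held 18.5, 26.2, 25.2, 17.1 and 72.6 CPM. The lowest fasted control was thus still above the highest fed one, and 4 of the 5 fasted controls of the second set were far below the rest.

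In S662D mice the fed values were 11.4, 9.82, 10.6, 12.3 and 10.3 CPM. The fasted S662D mice held 17.7, 101, 94.9, 47.5 and 72.0 CPM, which puts mouse 1 close to the low fasted controls and mice 2 and 3 above every control. The labelled knockout mice, all fasted, held 64.6, 76.2, 70.7, 81.2 and 76.5 CPM, without any low value. Fed and fasted mice did not overlap in either genotype. Of all genes tested, 0.371% were higher in every fasted control than in every fed one, and 1.96% were so in S662D mice, but Cdkn1a was chosen for this difference and nothing is read from it.

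**Figure D1:**
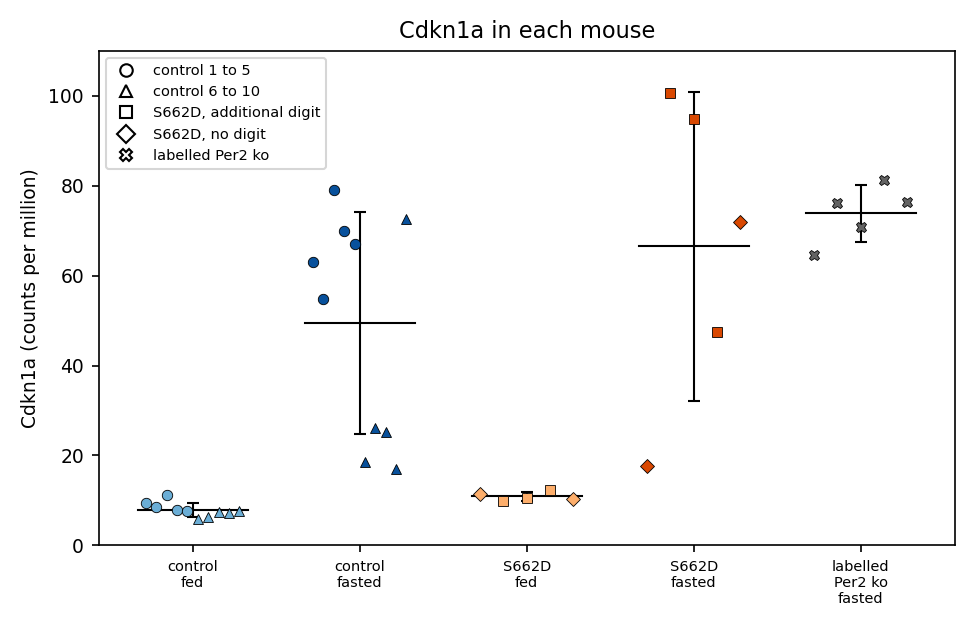
Cdkn1a in each mouse, in CPM on a linear axis from 0, by group. Each point is 1 mouse, the long line is the group mean, the bar is 1 SD, and shapes give the library set (the additional digit is part of the S662D library numbers). All fed mice lie at 12.3 CPM or below and all fasted mice at 17.1 CPM or above, with 4 of the controls 6 to 10 and S662D mouse 1 at the bottom of the fasted groups.

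The group means were 7.90 ± 1.54 CPM (SD, n = 10) in fed and 49.3 ± 24.7 CPM (SD, n = 10) in fasted controls, a log2 fold change of 2.64 (SE 0.30), or 6.24-fold. They were 10.9 ± 0.957 CPM (SD, n = 5) in fed and 66.5 ± 34.4 CPM (SD, n = 5) in fasted S662D mice, a log2 fold change of 2.61 (SE 0.40), or 6.11-fold. The labelled knockout mice held 73.8 ± 6.38 CPM (SD, n = 5). The difference between the 2 fasting responses was −0.03 on the log2 scale (SE 0.49). Within controls 1 to 5 the value was 2.90 and within controls 6 to 10 it was 2.21, while S662D mice had 2.90 with and 2.05 without the additional digit. Of the 15479 genes that averaged 1 CPM or more, the next in the order were Itgad, an integrin subunit, at 2.23 in controls (an uncertain value, since 19.7% of its 50-base words are also found in other genes' transcripts) and the neuropeptide gene Rln3 at 2.60 in S662D mice.

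The spread of Cdkn1a was wide in the fasted control and S662D groups and narrower in the others. Its SD of log2 CPM was 0.88 in fasted controls, above that of 99.8% of 15479 genes, and 1.03 in fasted S662D mice, above that of 99.9%. In fed controls it was 0.27 (above 85.0% of genes), in fed S662D mice 0.12 and in the labelled knockout 0.13, where the median gene had 0.12. Cdkn2c, a gene of few counts, also differed in spread, with an SD of 0.77 in fed S662D mice and 0.08 in the labelled knockout. Against the mean of fed controls, single fasted controls held 2.16 to 9.99 times as much. Fasted S662D mice held 1.63 to 9.24 times the mean of fed S662D mice. Total counts of fasted controls 6 to 10 were 18533235 to 22036714, against 17959586 to 20151419 in fasted controls 1 to 5. Their mitochondrial share was 6.91%, 6.88%, 6.93%, 6.81% and 7.29% in the order of the mice, against 7.27% to 8.70% in fasted controls 1 to 5, while the low S662D mouse 1 had 8.27%. Some marker sums differed between the same sets of fasted controls, 1 to 5 against 6 to 10. Microglial markers summed to 130 to 154 CPM against 159 to 185 CPM, ependymal ones to 26.4 to 33.6 against 33.9 to 51.2 CPM, without overlap, and oligodendrocyte ones to 6662 to 7339 against 7315 to 7908 CPM, with little overlap. Choroid plexus markers reached 189 CPM in the first set and 1491 CPM in the second, with overlapping ranges, and neuronal, astrocyte and endothelial sums overlapped too. No marker was at 0. The part of the mitochondrial share and of these markers in the result was not tested.

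Levels of different genes were compared only per kilobase of the gene length in the count tables. In fed controls the order was Cdkn2d (26.6 CPM per kb), Cdkn1b (12.2), Ccnd1 (4.32), Cdkn1a (3.55), Ccnd3 (2.7), Cdkn1c (1.94), Ccnd2 (1.71) and Cdkn2c (0.509). Neighbours from Ccnd1 to Ccnd2 overlapped between mice, and the other neighbours did not. With fasting Cdkn1a stood second in controls at 22.2 ± 11.1 CPM per kb (SD, n = 10), overlapping both Cdkn2d (25.0) and Cdkn1b (12.4). It stood first in fasted S662D mice at 29.9 ± 15.5 CPM per kb (SD, n = 5), overlapping Cdkn2d, and first without overlap in the labelled knockout at 33.2 ± 2.87 CPM per kb (SD, n = 5) against 25.3 for Cdkn2d. The remaining 2 members of the family were scarce: Cdkn2b held 0.251 to 1.05 CPM and Cdkn2a 0 to 0.169 CPM over all mice, and Cdkn2a had too few counts to be tested.

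None of the other inhibitors passed the test on fasting in controls. Of the 7 genes tested, 0 passed (were called), that is, had a p below 0.05 by edgeR's quasi-likelihood F-test after Benjamini-Hochberg adjustment over 18063 genes, of which 3.88% passed. Without adjustment 3 of 7 had a p below 0.05, against 13.3% of all genes, and DESeq2 called 1 of them, Ccnd2. In S662D mice 1 of 7 passed, Ccnd2, which fell. Of all genes 2.64% passed there, and 0.83% fell. The difference between the fasting responses passed for 0 of 7 genes and for 0.0% of all genes by edgeR, with 2 of 7 at an unadjusted p below 0.05 (Cdkn1b and Cdkn2d) against 6.37% of all genes, and for 0 of 7 in DESeq2.

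Cdkn1b, whose product p27 is a brake on cells that leave the cycle, did not pass the test on fasting in either genotype. In controls it held 50.8 to 61.3 CPM (median 55.5) in fed and 51.6 to 61.9 CPM (median 56.3) in fasted mice, ranges that nearly coincide. The estimate was 0.01 on the log2 scale (95% interval −0.06 to 0.09). In S662D mice the fed values were 50.3, 54.9, 52.0, 53.2 and 52.9 CPM and the fasted ones 60.0, 52.5, 62.4, 59.6 and 60.1 CPM, so that 4 of 5 fasted mice were above every fed one. There Cdkn1b had a log2 fold change of 0.16 (SE 0.05, with an adjusted p of 0.0948). Without fasted S662D mouse 2, the low one, it was 0.20 with an adjusted p of 0.0333.

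Cdkn1c is an imprinted gene whose product p57 acts like p27, mostly in development. Its counts are uncertain, since 30.65% of its exon bases overlap Gm44732 and no strand option was used in counting. It held 2.49 to 6.52 CPM (median 3.88) in fed and 3.01 to 8.24 CPM (median 3.95) in fasted controls. On fasting it differed by 0.16 on the log2 scale in controls (95% interval −0.17 to 0.49) and −0.16 in S662D mice (95% interval −0.61 to 0.29), which leaves room for changes of either sign.

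Cdkn2c (p18) was the scarcest of the 8, with 9 to 60 counts per library. It held 1.06 to 1.83 CPM (median 1.32) in fed and 0.797 to 1.99 CPM (median 1.28) in fasted controls. Fed S662D mice held 1.62, 1.30, 0.497, 1.15 and 2.44 CPM and fasted ones 2.03, 1.62, 1.96, 1.89 and 1.75 CPM, a wide fed group around a narrow fasted one. The log2 fold change was −0.02 in controls and 0.41 in S662D mice (SE 0.23, 95% interval −0.04 to 0.85, adjusted p 0.422 by edgeR).

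Cdkn2d (p19), the inhibitor with the highest level per kilobase in fed mice, held 37.1 to 44.8 CPM (median 42.6) in fed and 32.9 to 43.7 CPM (median 39.7) in fasted controls. Fasted controls differed from fed ones by −0.09 on the log2 scale (SE 0.04, adjusted p 0.366). In S662D mice the fed values were 44.7, 40.1, 42.0, 40.1 and 43.0 CPM and the fasted ones 42.4, 49.5, 42.9, 42.0 and 45.6 CPM, which overlap, with a difference of 0.09 (SE 0.06, adjusted p 0.549).

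Among the D cyclins, Ccnd2 fell on fasting in S662D mice. Fed S662D mice held 14.7, 18.4, 16.7, 16.8 and 17.9 CPM of Ccnd2 and fasted ones 13.7, 11.9, 12.1, 13.6 and 13.5 CPM. Every fasted S662D mouse lay below every fed one, which was so for 1.34% of all genes. The difference was −0.38 on the log2 scale (SE 0.09, adjusted p 0.0118 by edgeR), a decrease of 23.4% that was also called in the 3 libraries per state with the additional digit (−0.47, adjusted p 0.0178). It was −0.26 with an adjusted p of 0.999 in the 2 per state without the digit, and leaving out fed mouse 2 gave −0.35 with an adjusted p of 0.0589.

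In controls, Ccnd2 held 14.0 to 18.2 CPM (median 16.1) fed and 10.8 to 17.0 CPM (median 13.6) fasted, and 6 of 10 fasted mice lay below every fed one. This gave −0.22 on the log2 scale (SE 0.07, adjusted p 0.0596 by edgeR), and DESeq2 gave −0.22 with an adjusted p of 0.0452. Leaving out fed control 4, 5 or 7 or fasted control 8 brought the adjusted p of Ccnd2 to 0.0483, 0.0383, 0.0483 and 0.0153. The 2 responses of Ccnd2 differed by −0.17 on the log2 scale (95% interval −0.39 to 0.06), with an adjusted p of 0.825, which does not show a difference between genotypes. In this tissue block, fewer cells of a type and less RNA per cell cannot be told apart. Of 4 tanycyte and 3 ependymal markers 0 passed the test on fasting in S662D mice, but all estimates were negative. They ran from −0.06 (Col23a1) to −0.45 (Crym) on the log2 scale, with Foxj1 at −0.37 (SE 0.15). The marker sums were 28.5 to 33.1 CPM (tanycyte) and 33.6 to 52.3 CPM (ependymal) in fed S662D mice. Fasted, they were 22.9 to 29.5 and 28.3 to 37.6 CPM, with no marker at 0. In controls, 2 of 5 endothelial markers (Cldn5 and Tek) and 2 of 5 microglial markers (Cx3cr1 and P2ry12) fell on fasting. Of all genes 3.88% passed in that comparison, 2.2% of them all as higher. The endothelial sum was 123 to 149 CPM in fed and 100 to 121 CPM in fasted controls. The part of these markers in the result was not tested.

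Ccnd1 and Ccnd3 did not pass the test on fasting. Ccnd1 held 17.7 to 22.5 CPM (median 20.5) in fed and 16.8 to 19.9 CPM (median 18.9) in fasted controls, or −0.13 on the log2 scale (SE 0.05, adjusted p 0.195). In S662D mice it was 22.7 to 24.4 CPM fed and 19.8 to 23.4 CPM fasted, or −0.17 (SE 0.07, adjusted p 0.198). Ccnd3 held 20.9 to 28.1 CPM (median 23.2) in fed and 22.5 to 27.5 CPM (median 24.7) in fasted controls. Fasted and fed mice differed by 0.06 on the log2 scale (95% interval −0.04 to 0.16) in controls and 0.11 (95% interval −0.03 to 0.24) in S662D mice.

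**Figure D2:**
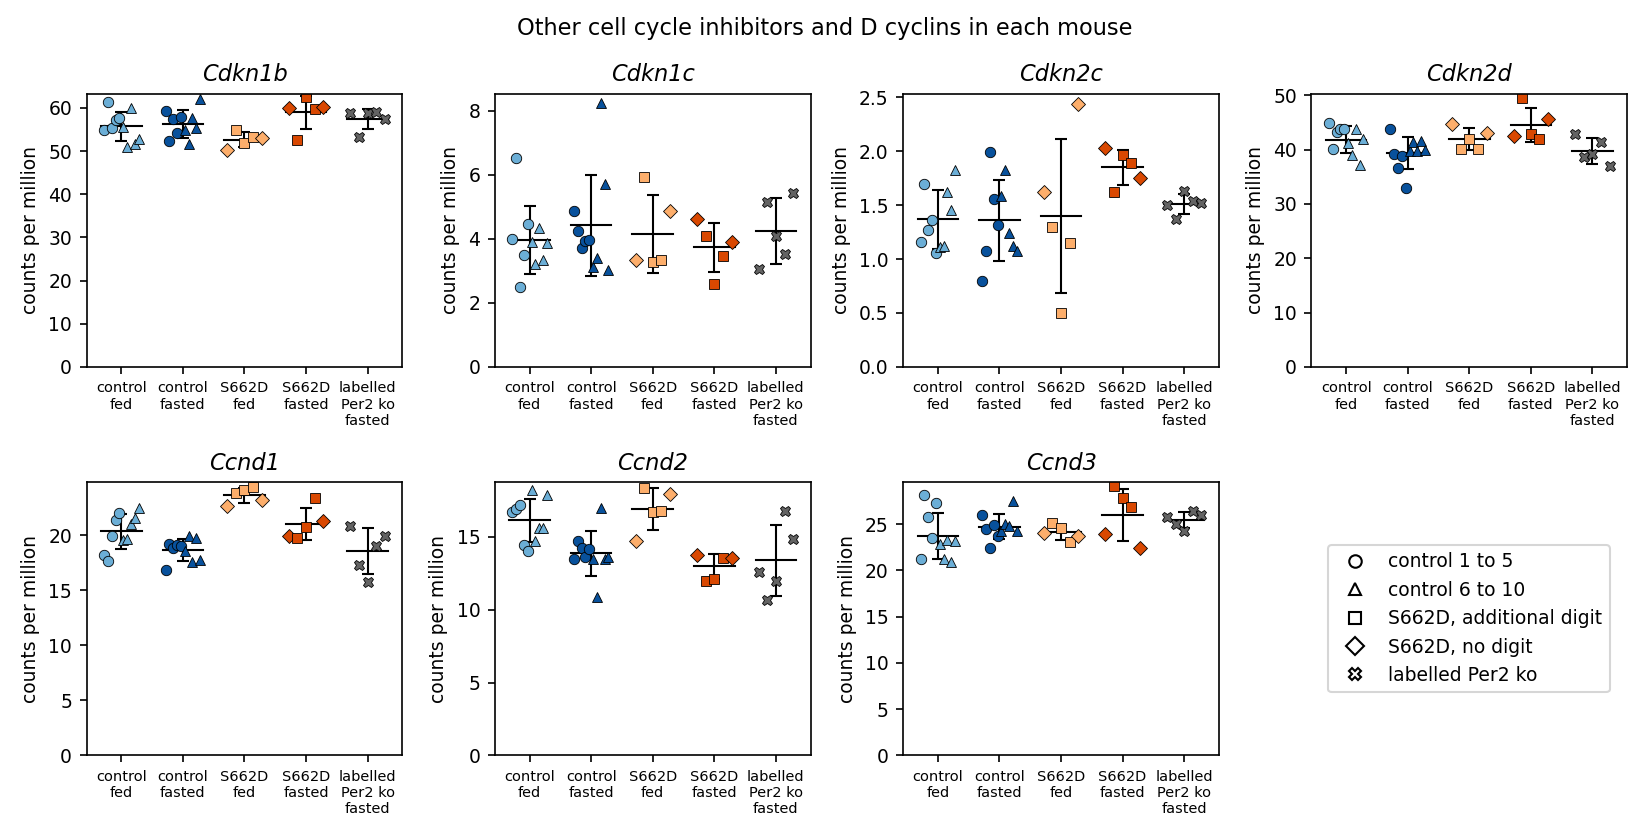
The other 7 genes in each mouse, in CPM, each panel on its own linear axis from 0, with the group mean (long line) and 1 SD (bar). The groups overlap in nearly every panel, and the 5 fed S662D mice stand above all fed controls for Ccnd1 (22.7 to 24.4 CPM against 17.7 to 22.5 CPM).

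PER2-S662D mice had more Ccnd1 than controls when fed. Fed S662D mice held 22.7, 23.8, 24.1, 24.4 and 23.2 CPM of Ccnd1 against 17.7 to 22.5 CPM in fed controls, and the groups did not overlap, as for 0.841% of all genes. Ccnd1 was higher by 0.22 on the log2 scale (SE 0.06, adjusted p 0.0257 by edgeR), an increase of 16.2%. It was the 1 gene of 8 that passed, against 4.69% of all genes (3.12% higher). Ccnd1 was called against controls 1 to 5 (0.26, adjusted p 0.0235) but not against controls 6 to 10 (0.18, adjusted p 0.284). With the additional digit as a term it was 0.18 with an adjusted p of 0.589, and in the 2 fed S662D libraries without the digit it was 0.17 with an adjusted p of 1.0. Leaving out fed S662D mouse 2, 3 or 4 gave adjusted p-values of 0.0914, 0.0903 and 0.123. Ccnd1 counts are uncertain as well, since 23.36% of its exon bases overlap Oraov1.

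Fasted S662D mice held 19.9, 19.8, 20.7, 23.4 and 21.3 CPM of Ccnd1, of which 4 were above every fasted control (16.8 to 19.9 CPM). Fasted mice thus differed by 0.17 on the log2 scale (SE 0.06, adjusted p 0.0766), and DESeq2 gave an adjusted p of 0.0450. Without fasted S662D mouse 1 the adjusted p of Ccnd1 was 0.0491. Markers of oligodendrocyte precursors, which are dividing cells of the adult brain, were higher in S662D mice too. Of these 4 markers 3 passed, all higher, in each feeding state. The 4 markers summed to 350 to 416 CPM in fed S662D mice against 314 to 339 CPM in fed controls, with none at 0. Fasted, the sums overlapped, at 332 to 443 CPM in S662D mice and 303 to 356 CPM in controls. Of 5 endothelial markers 2 (fed) and 4 (fasted) passed, all higher. Their sums were 137 to 171 CPM in fed S662D mice and 123 to 149 CPM in fed controls. In fasted mice they were 113 to 170 CPM and 100 to 121 CPM, which overlap. Of all genes, 3.12% (fed) and 3.35% (fasted) passed and were higher. The part of either cell type in the Ccnd1 result was not tested.

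In fasted mice, Cdkn2d was the gene that differed between S662D and control. Fasted S662D mice held 42.4, 49.5, 42.9, 42.0 and 45.6 CPM of Cdkn2d, against 32.9 to 43.7 CPM (median 39.7) in fasted controls, and 2 of 5 were above every control. Cdkn2d was higher by 0.18 on the log2 scale (SE 0.05, adjusted p 0.0340 by edgeR), an increase of 13.1%, and 1 of 8 genes passed against 5.57% of all genes (3.35% higher). Cdkn2d was called against controls 1 to 5 (0.22, adjusted p 0.0208) and not against controls 6 to 10 (0.14, adjusted p 0.200). With the digit as a term it was 0.20 with an adjusted p of 0.424. Scaling by library size alone gave 0.14 with an adjusted p of 0.111, and a fit of only these 2 groups gave an adjusted p of 0.104. Leaving out fasted control 3 or 5 gave adjusted p-values of 0.0581 and 0.0604, and leaving out fasted S662D mouse 2, 3, 4 or 5 gave 0.193, 0.0641, 0.0668 and 0.0529. Cdkn2c was 0.45 higher on the log2 scale (SE 0.20, adjusted p 0.176).

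Cdkn1a itself did not pass the test between genotypes in any of the 4 comparisons. Each of them uses fed or fasted libraries that also enter the fasting contrasts for which Cdkn1a was chosen, so they are not independent of that choice. In fed mice, S662D exceeded control by 0.46 on the log2 scale (SE 0.39, adjusted p 0.540 by edgeR), with 2 of 5 mice above every control. Set by set, it was 0.28 with controls 1 to 5 as the reference and 0.66 with controls 6 to 10, and it was called when only the 2 fed groups were fitted, without the widely spread fasted mice (0.47, adjusted p 0.0151). In fasted mice the difference was 0.43 (SE 0.30, adjusted p 0.454), but −0.01 from controls 1 to 5 alone and 1.06 from controls 6 to 10 alone. Over all settings other than leaving out single mice, the difference ran from −0.13 to 1.06 fasted and from 0.03 to 0.66 fed.

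The labelled knockout held 0.59 more Cdkn1a than fasted controls on the log2 scale (SE 0.30, adjusted p 0.839 by edgeR). Here too the value depended on the controls, with 0.15 against mice 1 to 5 and 1.22 against mice 6 to 10. Of the 8 genes 0 passed in that comparison in edgeR and in DESeq2, 0 had an unadjusted p below 0.05 (6.07% of all genes did), and 0.0277% of all genes passed. Between the labelled knockout and fasted S662D mice 0 of 8 passed in both tools, with 2 at an unadjusted p below 0.05 (Cdkn2d and Ccnd1, 22.4% of all genes) and 7.34% of all genes passing. Cdkn1a differed there by 0.15 (SE 0.35, adjusted p 0.842). The comparisons share the fasted controls and the fasted S662D mice, so these values are not independent of each other.

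**Figure D3:**
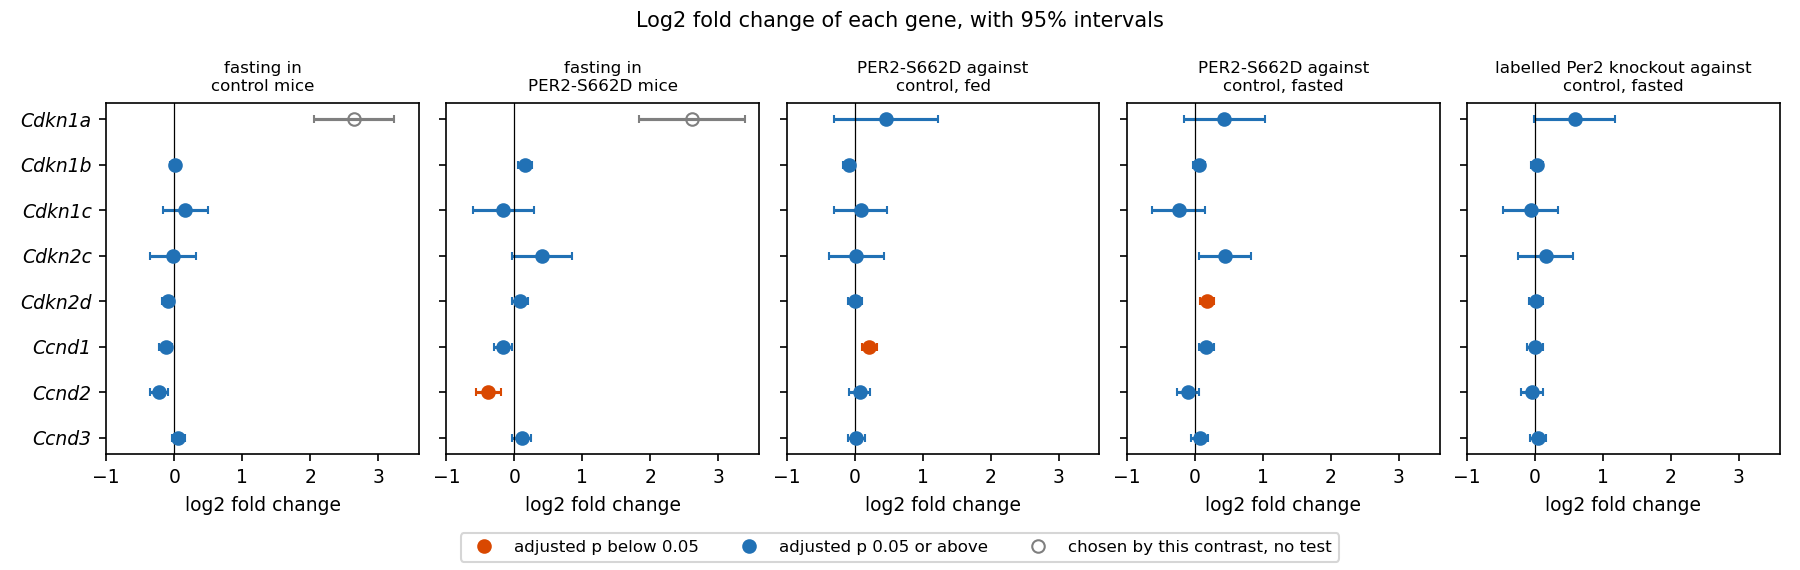
Log2 fold change of the 8 genes (rows) in 5 comparisons (panels), with 95% intervals as bars. Orange points passed an adjusted p of 0.05 (Ccnd2 on fasting in S662D mice, Ccnd1 and Cdkn2d in S662D against control), blue points did not, and open grey points mark Cdkn1a where it was chosen by that contrast, at 2.64 and 2.61.

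The machinery that p21 acts on held no call on fasting in controls, where 3.88% of all genes passed, so that 0 of 62 genes is near the background. Of 5 genes of D cyclins and their kinases, 12 tested later cyclins and kinases, 12 pocket proteins and E2F factors, 19 proliferation genes such as Mki67, Top2a and the Mcm helicase genes, and 14 genes that degrade inhibitors and cyclins, 0 passed by edgeR. At an unadjusted p below 0.05 there were 2, 0, 2, 1 and 1 in these lists, together 9.68% of 62 genes against 13.3% of all genes, and DESeq2 called 1, 0, 0, 0 and 0, the 1 being Ccnd2. Their median log2 fold changes were −0.02, 0.03, −0.01, 0.01 and 0.03, where all genes had a median of 0.00227. In S662D mice 1 gene of these 5 lists passed on fasting, Ccnd2, and DESeq2 called Pcna as well. The mitotic genes were near the limit of detection, with Mki67 at 0.433 CPM and Top2a at 0.487 CPM over all mice.

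Some targets of p53 rose with fasting. The p53 list was chosen with earlier results of these data known, so its counts are a description. In controls 4 of 20 p53 target genes other than Cdkn1a passed, all higher, with a list median of 0.08, where 2.2% of all genes passed and were higher. They were Fas, a death receptor (0.62, SE 0.15, adjusted p 0.00621), Trp53inp1, a p53-induced nuclear protein (0.52, SE 0.07), Sesn1, a sestrin of the stress response (0.35, SE 0.05), and Ccng1, cyclin G1 (0.20, SE 0.05). Fas held 1.54 ± 0.501 CPM (SD, n = 10) in fed and 2.36 ± 0.518 CPM (SD, n = 10) in fasted controls, and Trp53inp1 held 17.7 ± 1.82 and 25.4 ± 4.24 CPM (SD, n = 10). In S662D mice 2 of 20 passed, Fas (0.72, SE 0.20) and Trp53inp1 (0.40, SE 0.10), where 1.8% of all genes passed and were higher.

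The FOXO and antiproliferative lists were also chosen with earlier results of these data known, so their counts are descriptions too. FOXO factors and their targets gave 3 of 11 genes higher and 0 lower in fasted controls, where 2.2% of all genes passed and were higher. They were Cited2, a transcriptional coregulator (0.39, SE 0.06), the repressor Bcl6 (0.35, SE 0.07) and Foxo1 itself (0.34, SE 0.08). Of these, Cited2 (0.35, SE 0.08) and Bcl6 (0.37, SE 0.10) passed in S662D mice. Among 17 other antiproliferative genes, 2 rose in controls, the stress gene Gadd45g (0.47, SE 0.09) and Tob2 (0.28, SE 0.05), against the same 2.2% of all genes. In S662D mice 3 of the 17 rose, Gadd45g (0.85, SE 0.13), Tob2 (0.53, SE 0.07) and Gadd45b (0.45, SE 0.13). There 1.8% of all genes passed and were higher.

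Of the glucocorticoid-induced genes, 16 of 16 passed and were higher on fasting in each genotype. Of all genes, 2.2% in controls and 1.8% in S662D mice passed and were higher. The list medians were 1.11 in controls and 1.26 in S662D mice on the log2 scale. This list was taken with its result already known, so the count is a description. Within the list the highest value in controls was that of Sgk1, a kinase gene, at 1.87 (SE 0.15), and the lowest was that of Klf9, a transcription factor gene, at 0.32 (SE 0.05).

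**Figure D4:**
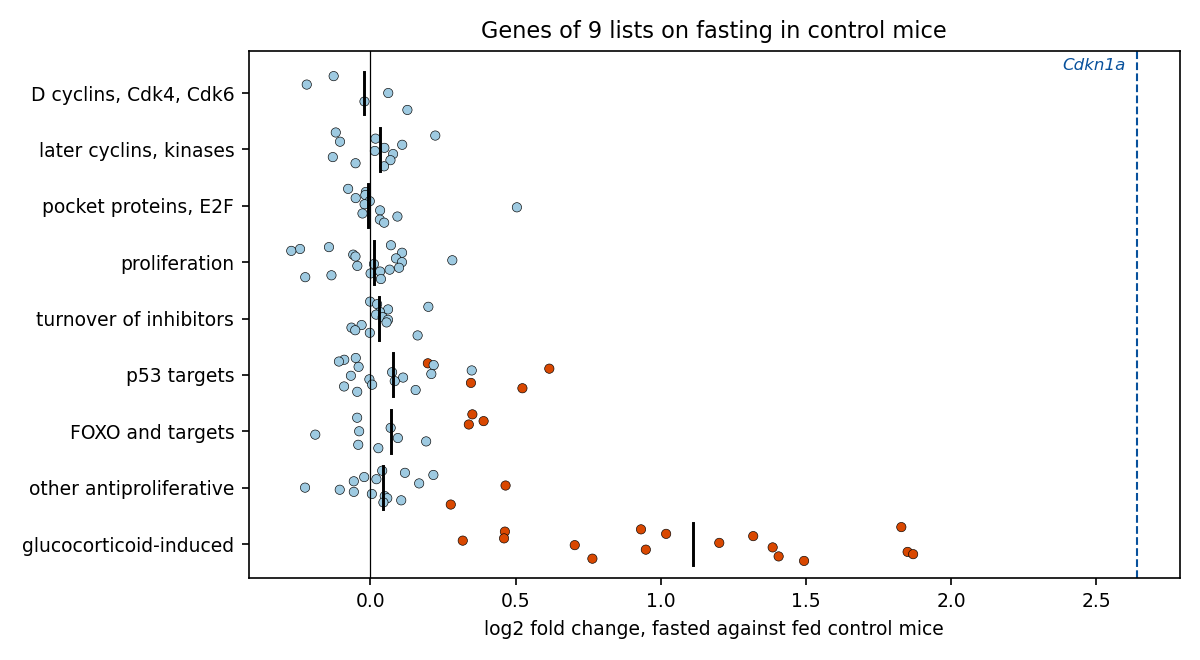
Log2 fold change on fasting in control mice for the genes of 9 lists (rows), each point 1 gene, orange where the adjusted p lay below 0.05. Black ticks are list medians and the dashed line is Cdkn1a at 2.64. The lists of the cell cycle machinery lie around 0, and the 16 glucocorticoid-induced genes lie between 0.32 and 1.87.

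Between genotypes, the share of these 126 genes that passed was near or below that of all genes. It was 6 genes (4.76%) for S662D against control, fed, where 4.69% of all genes passed, and 3 genes (2.38%) fasted, against 5.57%. For the labelled knockout against S662D it was 6 genes (4.76%), against 7.34%. Ccnd1 is 1 of the 6 in fed mice. In fed S662D mice against fed controls Wee1, a kinase that restrains CDK1, fell by 0.31 on the log2 scale (SE 0.06, adjusted p 0.00483 by edgeR), the replication clamp gene Pcna fell by 0.18 (SE 0.05; uncertain, with 19.1% of its 50-base words in other transcripts too) and the ubiquitin ligase subunit gene Skp1a fell by 0.17 (SE 0.04). Foxo3 rose by 0.23 (SE 0.05) and the glucocorticoid-induced Tsc22d3 fell by 0.37 (SE 0.10). In fasted S662D mice Wee1 (−0.22, SE 0.06), the phosphatase gene Cdc25b (−0.39, SE 0.10) and Ccne2, cyclin E2 (−0.36, SE 0.10; uncertain, with 17.42% of exon bases overlapping another gene), were lower. In the labelled knockout against controls 0 genes of these lists passed by edgeR or DESeq2, with 12 at an unadjusted p below 0.05 (9.52%, against 6.07% of all genes). Against S662D mice, Ccne2 (0.40), Trp53inp1 (0.31), Skp1a (0.15), Cul1 (0.13) and Mt1 (0.36) were higher and Mt2 was lower (−0.77; uncertain, with 73.47% of exon bases overlapping another gene).

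The mouse-to-mouse pattern of Cdkn1a was shared by other genes but, over all 35 mice, not by its own family. Over 35 mice, with the mean of each group subtracted, the 6 genes of 15478 with the highest Pearson correlation of log2 CPM with Cdkn1a were Htra1 (0.931), Mfsd2a (0.925), Pnpla2 (0.914), Phactr3 (0.902), Hr (0.900) and Arrdc2 (0.897). Spearman's rho was 0.880, 0.873, 0.825, 0.822, 0.845 and 0.851 in the same order. Htra1 encodes a secreted protease, Mfsd2a a lipid transporter of the blood-brain barrier, Pnpla2 the triglyceride lipase ATGL, Hr a corepressor of nuclear receptors and Arrdc2 an arrestin-like protein. The mice share the group and library set, so these values are a description without a test.

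The correlation rests on the fasted mice in part. Without the 2 mice farthest from the median (fasted S662D mouse 1 and fasted control 9), it was 0.895, 0.895, 0.863, 0.862, 0.851 and 0.830. Within the 15 fed mice it was 0.714 for Htra1, 0.400 for Mfsd2a, 0.186 for Pnpla2, 0.363 for Phactr3, 0.393 for Hr and 0.573 for Arrdc2. Subtracting the mean of each library set within a group left 0.827 to 0.877 for these 6 genes. Htra1 shows the pattern in single mice: fasted controls 1 to 5 held 220, 226, 264, 252 and 253 CPM, and fasted controls 6 to 10 held 148, 194, 171, 157 and 219 CPM. Fasted S662D mouse 1 had 157 CPM of Htra1, and the other 4 had 312, 280, 224 and 224 CPM.

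The other 7 genes correlated with Cdkn1a between −0.28 (Cdkn1c) and 0.11 (Cdkn1b) over the same 35 mice. Within the 10 fasted controls they ranged more widely, from −0.53 (Ccnd3) to 0.39 (Cdkn1b). Cdkn2d was at −0.40 in fasted controls but at 0.47 in the 10 fed controls. Of the 16 glucocorticoid-induced genes, Arrdc2 ranked 6, Fkbp5 9 (0.861), Sult1a1 10 (0.851) and Tsc22d3 11 (0.845), while Sgk1 ranked 140 (0.638) and Map3k6 778 (0.435). In the 10 fasted controls alone Fkbp5 correlated at 0.970 with Cdkn1a, and in the 10 fed controls at −0.47.

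**Figure D5:**
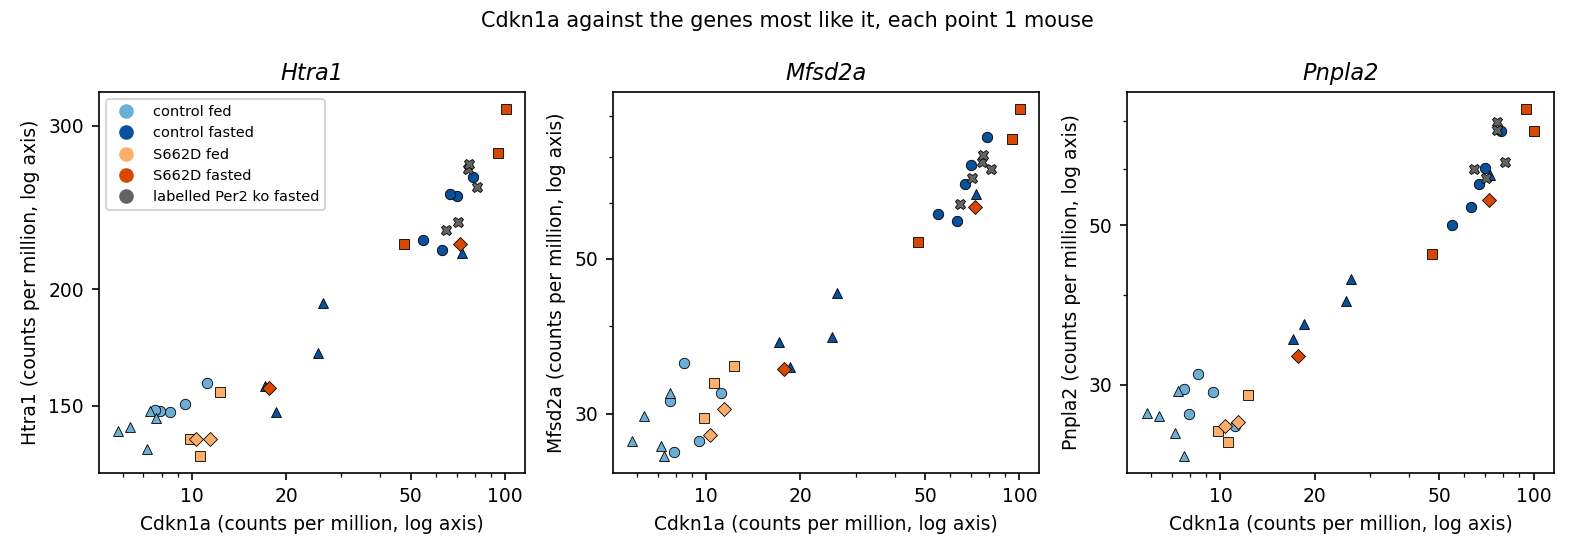
Cdkn1a (x axis) against Htra1, Mfsd2a and Pnpla2 (y axes), in CPM on log axes, each point 1 mouse, coloured by group and shaped by library set. The fasted mice low in Cdkn1a (4 controls of the set 6 to 10 and S662D mouse 1) lie below every other fasted mouse for all 3 genes. For Htra1 and Mfsd2a some of them lie within the range of fed mice.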

How the data were processed

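PolyA RNA of the hypothalamus of 35 mice was sequenced with paired reads of 150 bases, per the labels. The authors deposited raw counts per gene, 1 table per library. Reads were aligned with STAR 2.7.10b, per the submitters' processing notes. Fragments were counted with featureCounts 2.0.1 against GENCODE vM12 (mm10), with all alignments of multi-mapping reads, without a strand option and summed by gene name, per the file headers. This inflates genes with near-identical copies and adds reads of overlapping genes.

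Groups came from the labels, and no library was left out. Libraries of a group differed by more than counting error (chi-square per degree of freedom at least 2.53). Genes were filtered by filterByExpr (minimum count 10), scaled with TMM (factors 0.964 to 1.02) and tested with edgeR 4.0.16 in R 4.3.3 (glmQLFit robust, glmQLFTest) in 1 fit of 35 libraries. P-values were adjusted over 18063 genes with Benjamini-Hochberg, and a gene passed, or was called, at an adjusted p below 0.05. CPM values use the TMM-scaled library sizes. Alternatives were DESeq2 1.42.0, other scalings and filters, subsets of libraries, a replicate block and leaving out each library. On simulated counts, 62% of genes changed by 0.25 (log2) were recovered for fasting in controls and 40% for S662D against control, fed. The simulated libraries were independent, without differences shared by a library set, and only genes of at least 1 CPM were changed. The rates hold for that setting only.

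The 8 genes and all lists were chosen with earlier results of these data known. Named genes besides the 8 were up to 4 called genes per list and direction with the largest change for fasting in controls and up to 2 in other comparisons (mean of at least 1 CPM), and the 6 genes most like Cdkn1a. Genes with at least 10% of exon bases or 50-base words shared with another gene are called uncertain. Promoter windows came from RefSeq (GRCm38.p6).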

Additional observations from a re-analysis of the deposited data

Results flagged for a closer look

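Single libraries stood apart from their group in 3 of 40 gene and group combinations examined, by the gap to the nearest other mouse relative to the range of the group, both of log2 CPM. Chance gives such a gap in about 1 of 20 groups. Cdkn1b was lowest in fasted S662D mouse 2 at 52.5 CPM, where the other 4 mice held 59.6 to 62.4 CPM. It was also lowest in labelled knockout mouse 2 at 53.3 CPM, where the others held 57.5 to 58.9 CPM. Ccnd2 was lowest in fasted control 7 at 10.8 CPM, where the other 9 held 13.4 to 17.0 CPM. On the CPM scale its gap was 0.422 of the range, under the limit of 0.466 for 10 mice, so it stood apart on the log2 scale only. No library stood apart in this sense for Cdkn1a in any group.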

How the results depend on the processing

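Fold changes of the 8 genes kept their sign where they were called. The number of genes passing moved with the setting. On fasting in controls it was 1 in place of 0 when only these groups were fitted or DESeq2 was used, and 0 to 1 when single libraries were left out. On fasting in S662D mice it was 0 in place of 1 in the libraries without the digit, and 0 to 2 when single libraries were left out. For S662D against control, fed, it was 2 in place of 1 when only these groups were fitted, 0 against controls 6 to 10, 0 without the digit and 0 with a term for the digit, and 0 to 1 when single libraries were left out. For S662D against control, fasted, it was 0 in place of 1 with library size only, with only these groups, against controls 6 to 10, without the digit and with a term for the digit, 2 with DESeq2, and 0 to 2 when single libraries were left out. The cause was not tested, though the subsets hold fewer mice. The difference between the fasting responses and both comparisons with the labelled knockout gave 0 in all settings run. Cdkn2c could not be fitted at a minimum count of 50.

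Counts of all genes passing moved more. Against controls 1 to 5 and 6 to 10 they were 1315 and 304 in place of 701 for fasting in controls, 1741 and 33 in place of 847 for S662D against control, fed, 1680 and 48 in place of 1007, fasted, and 486 in place of 0 for the difference between responses (1 to 5). Against controls 6 to 10 the labelled knockout gave 99 in place of 5, and against 1 to 5 it gave 2. In S662D libraries with and without the digit, they were 683 and 7 in place of 476 for fasting, 3106 and 16 (fed) and 3148 and 21 (fasted) against control, and 2986 and 26 in place of 1325 for the knockout against S662D. The difference between responses gave 9 with the digit. A term for the digit gave 23 and 20 for S662D against control (fed, fasted) and 42 for the knockout against S662D. Fits of only the groups compared gave 279 for fasting in S662D mice, 291 for S662D against control, fasted, 3 for the knockout against control and 476 for the knockout against S662D. DESeq2 gave 1423 for S662D against control, fed, and 8 for the knockout against control, for which a minimum count of 50 gave 3.

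With the replicate number as a block, S662D against control, fasted, gave 0 genes in place of 1 (Cdkn2d, log2 fold change 0.18, adjusted p 0.0687), and no other call changed. Over all genes the block gave 1124 in place of 847 for S662D against control, fed, and 1092 in place of 1007, fasted. The pairing rests on the number alone, since in no comparison did every pair of same-numbered mice correlate above 0.1. Fed and fasted controls correlated at −0.19 to 0.06 (0 of 10 best with their own number), fed and fasted S662D mice at −0.11 to 0.16 (1 of 5), and fasted controls and labelled knockout at −0.14 to 0.05 (0 of 5). Controls and S662D mice correlated at −0.05 to 0.24 fed (3 of 5 above 0.1 and 3 of 5 best with their own number) and at −0.02 to 0.10 fasted (1 of 5 and 2 of 5).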
